A study of Mus musculus with 4 samples.

Results

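Cytotoxic lymphocytes kill through granules and death ligands and signal to their targets through IFN-γ, and the 8 genes described here encode these tools: Gzma, Gzmb, Gzmk, Prf1, Nkg7, Fasl, Ifng and Ctsw. They were taken by symbol from the 32285 genes of the count tables, and all 8 were present. Their UMIs (unique molecular identifiers, each standing for 1 captured transcript) were summed in T cells, NK cells and all other cells of 4 single-cell libraries of orthotopic KPC pancreatic tumors, 1 library per condition. KPC cells are mouse pancreatic ductal adenocarcinoma cells, and line FC1242 was grafted into C57BL/6 males made obese with a high-fat diet for 24 weeks. Pdgfrb-TK/GCV is the library from Pdgfrb-TK hosts, in which the Pdgfrb promoter drives thymidine kinase, given ganciclovir (GCV) at 50 mg/kg to kill the cells that express it, and Pdgfrb-TK/PBS is its control. D-CAN is the library from wild-type hosts injected with D-CAN at 30 mg/kg, a peptide that joins a targeting sequence for stromal cells of adipose origin to a cell-killing one, and WT/PBS is its control. Injections were given every other day for 25 days. The labels give an age of 7 months and the methods 12 months. Suspensions of tumors from the same treatment were combined ahead of capture. No difference therefore has a replicate check, no test was made, and every interval below is an exact 95% interval for counting error only.

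Granzymes are serine proteases stored in the granules of cytotoxic T and NK cells. Perforin, the product of Prf1, forms pores in the target membrane through which granzymes enter the cytosol and start apoptosis. Nkg7 is a membrane protein of these granules that takes part in their release, and Ctsw is cathepsin W, a cysteine protease of T and NK cells. FasL, the product of Fasl, kills through the death receptor Fas without granules. Ifng encodes IFN-γ, which acts through its receptor and Jak kinases to induce Irf1, antigen presentation and the feedback inhibitor Socs1 in the cells it reaches. Killer T cells carry the CD8 coreceptor, while helper and regulatory T cells carry CD4, and regulatory T cells express Foxp3.

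The 8 genes lie on 6 chromosomes in mm10 (GENCODE M21). Gzma (chr13:113093825-113100981) and Gzmk (chr13:113171608-113225908) are neighbors on the minus strand, 70627 bases apart, and Prf1 (chr10:61297833-61304680) and Ifng (chr10:118441046-118445892) share chromosome 10 on the plus strand. Gzmb lies at chr14:56258838-56262260, Nkg7 at chr7:43437073-43438249, Fasl at chr1:161780689-161788495 and Ctsw at chr19:5465043-5468507. The promoters of Gzmb, Prf1, Gzmk and Ifng are shown as examples. Gzmb, Prf1 and Ifng were abundant in the T cells of the D-CAN library, as were Nkg7, Ctsw and Gzma. Gzmk lay apart from the others among T cell subsets. Each is the 250 bases before the RefSeq start in GRCm38.p6, written 5′ to 3′ on the gene's strand, with capitals marking matches, on either strand, to AP-1 (TGAGTCA), Runx (TGTGGT), T-box (GGTGTG), Ets (AGGAAG) or CRE (TGACGT) letters.
Gzmb (chr14:56262335-56262584, minus strand): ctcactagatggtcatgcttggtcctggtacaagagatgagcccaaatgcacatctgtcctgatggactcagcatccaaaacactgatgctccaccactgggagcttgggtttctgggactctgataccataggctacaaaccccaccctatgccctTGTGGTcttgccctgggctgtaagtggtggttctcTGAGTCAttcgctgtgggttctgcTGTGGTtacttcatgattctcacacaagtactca
Prf1 (chr10:61297586-61297835, plus strand): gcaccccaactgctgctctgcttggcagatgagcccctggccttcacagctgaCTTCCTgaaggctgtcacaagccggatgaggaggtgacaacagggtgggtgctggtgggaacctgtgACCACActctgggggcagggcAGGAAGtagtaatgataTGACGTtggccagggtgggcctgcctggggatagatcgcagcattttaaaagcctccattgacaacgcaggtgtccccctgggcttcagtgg
Gzmk (chr13:113180966-113181215, minus strand): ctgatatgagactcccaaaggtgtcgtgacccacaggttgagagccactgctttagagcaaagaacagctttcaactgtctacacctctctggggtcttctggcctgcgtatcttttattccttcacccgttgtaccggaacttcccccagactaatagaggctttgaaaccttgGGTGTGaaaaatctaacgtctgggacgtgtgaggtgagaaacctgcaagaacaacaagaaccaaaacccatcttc
Ifng (chr10:118440796-118441045, plus strand): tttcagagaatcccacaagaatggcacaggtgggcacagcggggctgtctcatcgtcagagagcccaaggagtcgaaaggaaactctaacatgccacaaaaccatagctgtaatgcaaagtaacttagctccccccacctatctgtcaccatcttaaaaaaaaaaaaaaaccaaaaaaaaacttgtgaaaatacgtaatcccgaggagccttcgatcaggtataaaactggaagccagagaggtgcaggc

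Among the 7 of 8 members with a RefSeq promoter, Runx letters were found in Gzma, Gzmb, Prf1 and Nkg7, while 14% of all 32817 promoters of this length held them. The Gzmb promoter held 2 Runx matches, 93 and 34 bases before the start, and an AP-1 match at 58 bases, which 4.46% of all promoters held. Prf1 held Ets letters in 2 places, a Runx match and a CRE match (29.5%, 14% and 6.46% of all promoters). The Gzmk promoter held T-box letters only, as did 16.3% of all promoters. The Ifng window held none of the 5 motifs, which says only that these letters are not in this window. A match is a description of the sequence, and binding was not measured.

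Cells were given to a class when at least 2 of its marker genes had a UMI and no other class had a larger share of its markers. T cells were gated on Cd3d, Cd3e, Cd3g and Trac, NK cells on Ncr1, Klrb1c and Klre1, and no member was used in the gate. Cells with at least 200 genes numbered 10178 to 12280 per library, with 84020317 to 155408336 UMIs in the deposited tables. The T cell gate took 79 cells after GCV and 12 in its PBS library, 534 after D-CAN and 25 in WT/PBS, which was 0.643%, 0.115%, 5.25% and 0.215% of cells. The 12 T cells of Pdgfrb-TK/PBS held only 20458 UMIs in all, so that 3 UMIs, the most that a count of 0 allows, amounted to 147 CPM (counts of a gene per mega-count of UMIs of the class), against 1.03 CPM in D-CAN. Genes outside the gate fitted its name in D-CAN, where the leukocyte gene Ptprc was detected in 94.2% and the T cell receptor gene Trbc2 in 78.7% of T cells. The shares were 88% and 64% in WT/PBS, 87.3% and 54.4% after GCV and 58.3% and 33.3% in Pdgfrb-TK/PBS. Markers of KPC cells, 4 keratins and Epcam, were present in the gate too. They summed to 2120 CPM in T cells after GCV, 880 CPM in its PBS library, 672 CPM after D-CAN and 438 CPM in WT/PBS. That was 38.1%, 11.4%, 12.3% and 5.73% of their level in KPC tumor cells of the same library. In each library 0 or 1 of the 5 markers was at 0. Cells with over 20% mitochondrial UMIs made up 29.3% of D-CAN and 4.48% to 18.2% of the others, and without them the T cell ratio of the summed members given below, 5.95, was 6.05. In the same library order, at least 2 markers of a second class were found in 47 of 79, 3 of 12, 141 of 534 and 12 of 25 T cells. Except where a value without such cells is given, their part in the results was not tested. The barcodes shared by pairs of libraries numbered 25 to 40, and none was a T cell in both.

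T cells of the D-CAN library carried far more of these transcripts than those of WT/PBS. The D-CAN levels were highest for Nkg7, Ifng and Ctsw, but the WT/PBS levels of Ifng and Ctsw came from 1 UMI each. The summed level of the 8 genes was 1861 CPM after D-CAN, against 313 CPM in WT/PBS, a 5.95-fold difference (4.16 to 8.82). In the other model it was 200 CPM in Pdgfrb-TK/GCV and 733 CPM with PBS. The D-CAN level rested on 5428 UMIs and the other 3 on 62, 15 and 30, and the 2 PBS libraries themselves differed 2.34-fold (1.17 to 4.49). Against Pdgfrb-TK/PBS in place of WT/PBS, the D-CAN level was 2.54-fold higher (1.54 to 4.54).

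Nkg7 was the main source of UMIs in the D-CAN sum. Its level in T cells was 87.1 CPM after GCV and 489 CPM in its PBS library, 1081 CPM after D-CAN and 125 CPM in WT/PBS. D-CAN stood highest, 8.63-fold above WT/PBS (4.94 to 16.7), but 2.21-fold (1.2 to 4.62) above Pdgfrb-TK/PBS, whose value came from 10 UMIs in 3 cells. Nkg7 was 58.1% of the member UMIs in D-CAN T cells and 40% of the 30 in WT/PBS. The other 7 genes together were 4.16-fold higher in D-CAN (2.62 to 7.03).

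Among the granzymes, Gzmb was measured at 35.5 CPM after GCV and 0 in its PBS library, 150 CPM after D-CAN and 62.6 CPM in WT/PBS. Gzma was at 12.9 CPM, 0, 118 CPM and 41.7 CPM in the same order. The D-CAN level was 2.4-fold above WT/PBS for Gzmb (1.09 to 6.57) and 2.84-fold for Gzma (1.1 to 10.5), with lower bounds close to 1. It was not set apart from Pdgfrb-TK/PBS, where a count of 0 allows 147 CPM. The WT/PBS values came from 6 and 4 UMIs, and 4 of the 6 Gzmb UMIs lay in 1 cell. Without the cell with the most UMIs of each gene in each library the folds were 6.4 for Gzmb (1.76 to 53) and 3.49 for Gzma (0.954 to 29), while without cells that also had 2 markers of a second class the Gzmb fold was 1.46 (0.619 to 4.54). Gzmk, a granzyme of memory-like T cells, was the exception, at 22.6 CPM (7 UMIs), 97.8 CPM (2 UMIs), 30.9 CPM (90 UMIs) and 0 UMIs. Its D-CAN level lay just under the 31.3 CPM that a count of 0 allows in WT/PBS, so that a difference was not detectable at this depth.

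Prf1, the pore former, was at 6.45 CPM after GCV and 0 in its PBS library, 111 CPM after D-CAN and 20.9 CPM in WT/PBS. Its D-CAN level was 5.31-fold above WT/PBS (1.46 to 44), where it rested on 2 UMIs. Ctsw, the cathepsin, was at 12.9, 48.9, 157 and 10.4 CPM. The ratio of D-CAN to WT/PBS was 15 (2.68 to 595) against 1 UMI. The wide upper bounds of both genes come from these small control counts.

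Ifng was measured at 3.23 CPM (1 UMI) after GCV and 97.8 CPM (2 UMIs) in its PBS library, 167 CPM (488 UMIs) after D-CAN and 10.4 CPM (1 UMI) in WT/PBS. The ratio of D-CAN to WT/PBS was 16 (2.87 to 635), and to Pdgfrb-TK/PBS 1.71 (0.471 to 14.2). Fasl differed least. It was at 19.4 CPM, 0, 46.3 CPM and 41.7 CPM, and its D-CAN level was 1.11-fold that of WT/PBS (0.423 to 4.13). With every T cell thinned to 1000 UMIs in a single random draw, the ratio was 0.267 for Fasl (0.0773 to 1.42). It was 1.27 for Gzma (0.336 to 10.8), 1.82 for Gzmb (0.486 to 15.3) and 2.5 for Prf1 (0.43 to 101). Neither Gzma, Gzmb nor Prf1 then differed beyond counting error, while the sum was still 3.96-fold higher (2.2 to 7.97). For Ifng and Ctsw thinning gave only lower bounds on the ratio, listed with the other alternatives below. The gene ratios rest on few UMIs in WT/PBS, and the intervals leave out the noise of the draw. In another draw, a Fasl UMI was left in 6.04% of D-CAN and 8% of WT/PBS T cells. For Prf1 these shares were 8.11% and 8%.

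**Figure D1:**
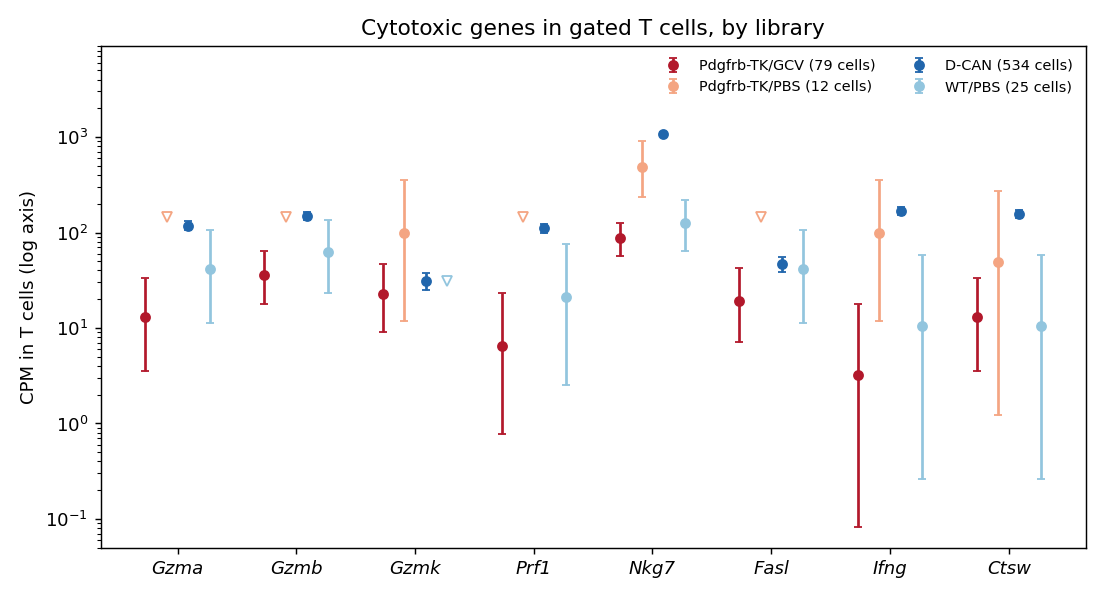
Level of each gene in gated T cells (CPM, log axis) by library, with exact 95% Poisson intervals; an open triangle marks the level that 0 UMIs allows. The D-CAN points are the highest for Gzma, Gzmb, Prf1, Nkg7, Fasl, Ifng and Ctsw among libraries with a UMI, and the Pdgfrb-TK/PBS triangles at 147 CPM lie above or near them.

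Read against all genes, 7 of the 8 members were at least 2-fold higher in D-CAN T cells than in WT/PBS on the log2(CPM + 1) scale and none was 2-fold lower, while 29.9% of the 9878 genes with at least 20 UMIs were 2-fold higher and 8.11% lower. Gzmk is among the 7 through its 0 in WT/PBS. All 8 members reached 20 UMIs through D-CAN, with 90 to 3152 UMIs there and 0 to 12 in WT/PBS. T cells held 2916507 UMIs in D-CAN and 95873 in WT/PBS, so that 1 UMI in WT/PBS was 10.4 CPM. A gene that passed with 0 UMIs there was called higher by these settings alone, which also holds for the 29.9%. The count is therefore a description and gives no support for a difference. The median log2 ratio was 2.73 over the members and 0.25 over all genes tested.

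In the Pdgfrb-TK model T cells from GCV-treated hosts did not hold more of these transcripts. The sum was 0.273-fold that of Pdgfrb-TK/PBS (0.153 to 0.516) and Nkg7 0.178-fold (0.0836 to 0.413), but without Nkg7 the ratio of the sum was 0.462 (0.18 to 1.51). Of the 10 Nkg7 UMIs in Pdgfrb-TK/PBS, 7 lay in 1 cell, and without the top cell of each library the Nkg7 ratio was 0.326 (0.0973 to 1.71). Leaving out cells with 2 markers of a second class, which were 59.5% of the GCV T cells and 25% of the PBS ones, moved the ratio of the sum to 0.583 (0.291 to 1.25), and the lower sum then no longer stood outside counting error. Nkg7 was the only member with 20 UMIs over the pair. It was 2-fold lower, as were 13.1% of the 2670 genes tested, while 23.8% were 2-fold higher. Gzma, Gzmb, Prf1 and Fasl had 2 to 11 UMIs in T cells of Pdgfrb-TK/GCV and none in those of Pdgfrb-TK/PBS. All 4 levels lay under the 147 CPM that a count of 0 allows there. Outside the T and NK gates, Pdgfrb-TK/PBS held 5, 17, 4 and 3 UMIs of these genes. Whether some of these came from lymphocytes that the gate missed was not tested.

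Counted over all cells, where more T cells and more transcripts per T cell both add to the level, the summed members were at 5.99 CPM after GCV and 3.73 CPM in its PBS library, 49.2 CPM after D-CAN and 3.23 CPM in WT/PBS. The D-CAN library stood apart from the other 3. It was 15.2-fold above WT/PBS (13.9 to 16.7), and by gene the fold was 74.7 for Nkg7 (57.2 to 99.3), 63.2 for Prf1 (30.4 to 158), 42.4 for Ifng (25.9 to 74.7), 23.8 for Gzma (15 to 40) and 17.5 for Gzmb (12.3 to 25.5). It was lower for Fasl at 9.16 (5.85 to 15), Gzmk at 3.54 (2.47 to 5.18) and Ctsw at 3.32 (2.91 to 3.79). On the log2(CPM + 1) scale 7 of 8 members were 2-fold higher, against 7.32% of 20254 genes higher and 2.21% lower. Gzmk was below 2-fold on that scale because its levels, 0.934 and 0.264 CPM, are under the added 1 CPM. The filter kept genes with at least 20 UMIs over the pair of libraries. Gzma, Prf1 and Ifng had 19, 7 and 16 UMIs in WT/PBS and so passed it only through D-CAN, where they were high. The count of 7 is therefore a description and by itself gives no support for a difference.

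GCV over PBS, the ratio of the sum over all cells was 1.61 (1.41 to 1.84). Ctsw carried most of it, with 570 of the 765 member UMIs in Pdgfrb-TK/GCV and a ratio of 1.64 (1.41 to 1.93). Of the other genes, Fasl had 24 against 3 UMIs, a ratio of 5.26 (1.6 to 27.3), and Gzmk 44 against 11, a ratio of 2.63 (1.34 to 5.65), while Nkg7 was at 1.08 (0.726 to 1.63). None of the 5 members tested was 2-fold apart on the log2(CPM + 1) scale, and of 18845 genes 4.61% were 2-fold higher and 1.62% lower.

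The cells that held these UMIs also differed. T and NK cells together held 87.3% (86.5 to 88.1) of the member UMIs in D-CAN, but 8.5% (6.62 to 10.7) after GCV, 4.79% (2.71 to 7.78) in its PBS library and 5.98% (4.07 to 8.42) in WT/PBS. In those 3 libraries KPC tumor cells held 76.9%, 77.3% and 66.5%, most of it Ctsw. T and NK cells held 0.702%, 0.439% and 0.325% of the Ctsw UMIs there, but 40.6%, 23.8% and 21.8% of those of Nkg7. For the other genes, with few UMIs each, the shares ran from 0% to 66.7%. In D-CAN the share in T and NK cells was 95.5% for Gzma, 93.3% for Nkg7, 91.9% for Prf1, 90.6% for Ifng, 90.1% for Gzmb, 83.3% for Fasl, 74.4% for Gzmk and 56.5% for Ctsw. Cells that no class took held 220 of the 808 UMIs outside T and NK cells in D-CAN.

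**Figure D2:**
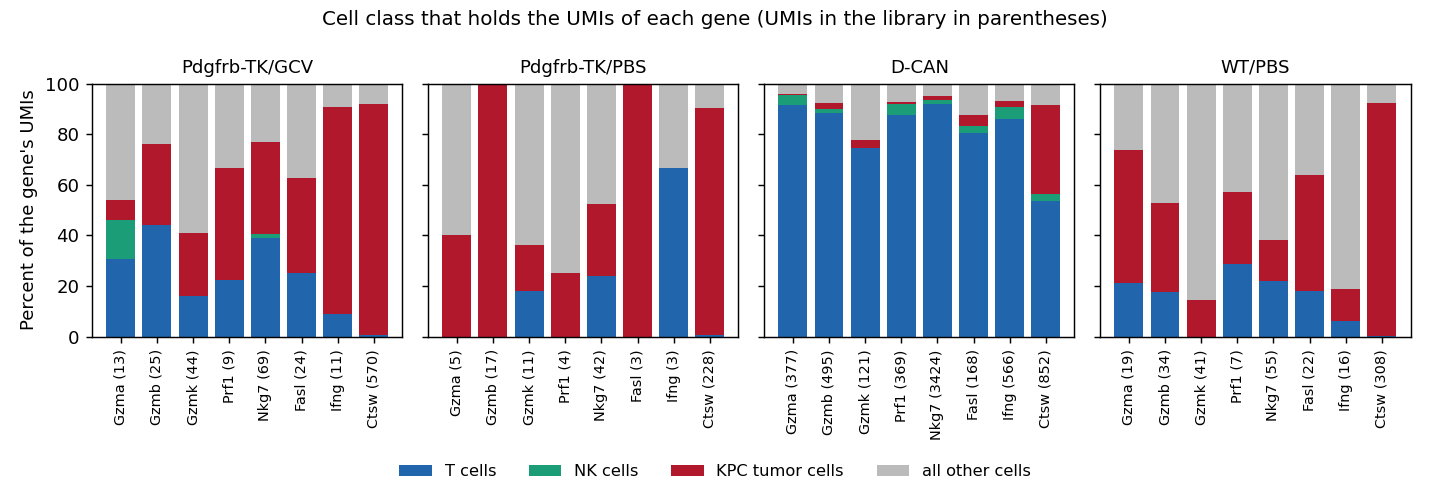
Percent of each gene's UMIs found in T cells, NK cells, KPC tumor cells and all other cells, by library, with the gene's UMIs in that library in parentheses. T cells take most of every bar in D-CAN, and KPC tumor cells take 89.9% to 91.9% of Ctsw elsewhere.

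NK cells were few, with 2 after GCV and 2 in its PBS library, 13 after D-CAN and none of 11627 cells in WT/PBS, which allows a share of up to 0.0317%. The GCV cells held 3 member UMIs and the PBS cells none, so no ratio was formed in that model, and in the other model there was no control cell to compare with. The 13 D-CAN cells held 136 member UMIs, or 2102 CPM (1763 to 2486), which was 1.13-fold (0.946 to 1.34) the level of T cells in the same library. Ctsw was 2.37-fold higher in NK than in T cells (1.5 to 3.57), Ifng 2.31-fold (1.48 to 3.45), Prf1 2.23-fold (1.26 to 3.68) and Gzma 1.96-fold (1.08 to 3.28). Nkg7 was lower, at 0.615-fold (0.444 to 0.83), and Gzmk had no UMI in NK cells, where a count of 0 allows 46.4 CPM. The Ifng and Gzma UMIs of the NK cells came from 3 cells each, with 14 of 25 and 13 of 15 UMIs in 1 cell.

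Among D-CAN T cells, those with a Cd8a or Cd8b1 UMI held more of 6 members, while the ratio of Gzma depended on single cells. They numbered 271 of 534 T cells (50.7%, 46.4 to 55.1), against 12 of 79 after GCV and 1 of 12 in its PBS library, and 5 of 25 in WT/PBS. Their median depth was 5162 UMIs and that of the other D-CAN T cells 3098, so detection of Cd8 and depth move together. On the CPM scale, Ifng was 3.93-fold higher in the Cd8 cells (235 against 59.7 CPM, 3.03 to 5.17), Prf1 3.67-fold (2.69 to 5.12), Nkg7 2.85-fold (2.6 to 3.12) and Ctsw 2.48-fold (1.97 to 3.16). Gzmb was 2.06-fold higher (1.65 to 2.6) and Fasl 1.79-fold (1.21 to 2.71). Gzma was 2.29-fold higher (1.77 to 3), but 130 of its 271 UMIs in Cd8 cells lay in 1 cell. Without that cell the ratio was 1.2 (0.898 to 1.61), within counting error. Of the 74 Gzma UMIs in the other T cells, 38 also lay in 1 cell, which was kept in that ratio. Gzma was detected in 24 of 271 Cd8 cells and 7 of 263 others, without a correction for depth. The other 7 genes, Gzmk on the lower side, kept intervals that left out 1 without their top cell, an alternative added after seeing the data.

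Gzmk ran the other way, at 18.4 CPM with Cd8 and 50.8 CPM without, a ratio of 0.362 (0.229 to 0.566). The 83 cells with Cd4 but neither Cd8 nor Foxp3 held 42 of its 90 UMIs and reached 104 CPM (75.1 to 141). These Cd4 cells also held Nkg7 at 987 CPM, Ifng at 96.8 CPM and Prf1 at 91.8 CPM. The 38 cells with Foxp3 and no Cd8 showed another pattern. Gzmb was at 418 CPM (321 to 536), above the 187 CPM of the Cd8 cells. Its 62 UMIs lay in 9 of the cells, 24 of them in 1 cell, and the level without that cell was not computed. Gzmb was detected in 23.7% of the Foxp3 cells and 32.8% of the Cd8 cells. In the Foxp3 cells Gzma, Gzmk, Fasl and Ifng had no UMI, Prf1 had 1 and Nkg7 was at 74.2 CPM.

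**Figure D3:**
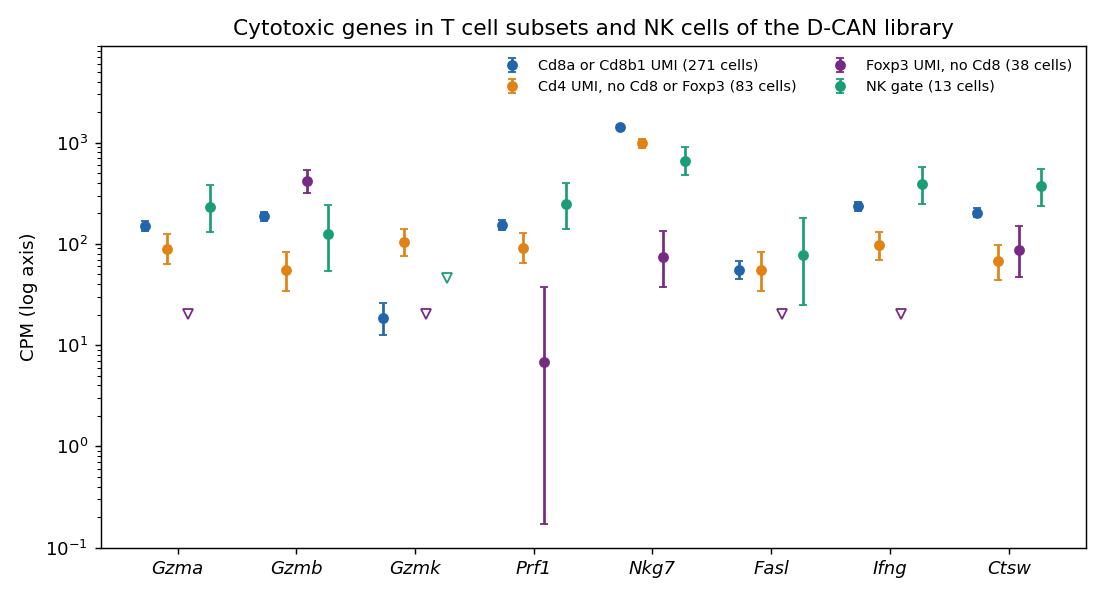
Level of each gene (CPM, log axis) in T cell subsets and NK cells of the D-CAN library, with exact 95% Poisson intervals; an open triangle marks the level that 0 UMIs allows. Gzmk is highest in Cd4 cells, Gzmb in Foxp3 cells, and Ifng, Prf1, Gzma, Fasl and Ctsw in NK cells, followed by the Cd8 cells. For Gzma this order depends on single cells. Without the cell with 130 UMIs, Cd8 cells were at 79 CPM, against 89.3 CPM in Cd4 cells, and most NK UMIs lay in a single cell.

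The larger share of Cd8 cells in D-CAN moved with the higher T cell level, and the difference was therefore also taken within each subset. Among cells with a Cd8 UMI the summed members were at 2445 CPM after D-CAN and 524 CPM in the 5 cells of WT/PBS, 4.66-fold (2.6 to 9.35), and among cells without one at 928 and 254 CPM, 3.66-fold (2.33 to 6.1). Nkg7 was 10.1-fold (3.44 to 48.9) and 4.21-fold (2.2 to 9.26) higher. Gzmb in Cd8 cells was at 187 CPM after D-CAN and 238 CPM, from 5 UMIs, in WT/PBS, a ratio of 0.786 (0.334 to 2.44).

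The genes were spread unevenly over the T cells. In D-CAN, 399 of 534 T cells held a UMI of at least 1 member (74.7%), 218 of at least 3 (40.8%) and 64 of at least 5 (12%). At least 3 members were found in 3 of 79 cells after GCV and 0 of 12 in its PBS library, and in 2 of 25 in WT/PBS. Median depth per T cell was 2540, 1252, 3932 and 3231 UMIs in the library order used above. After each cell was thinned to 1000 UMIs, at least 1 member was left in 62.5% (58.2 to 66.6) of 530 D-CAN T cells and 36% (18 to 57.5) of 25 WT/PBS T cells, with 4 and 0 shallower cells left out. For Nkg7 the thinned shares were 47.4% and 8%, and the unthinned ones 64.4% and 40%. In macrophages and monocytes, which should lack these genes, a member was seen in 2.25% of D-CAN cells at a median of 5246 UMIs, and in 0.542% (0.176 to 1.26) after thinning.

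**Figure D4:**
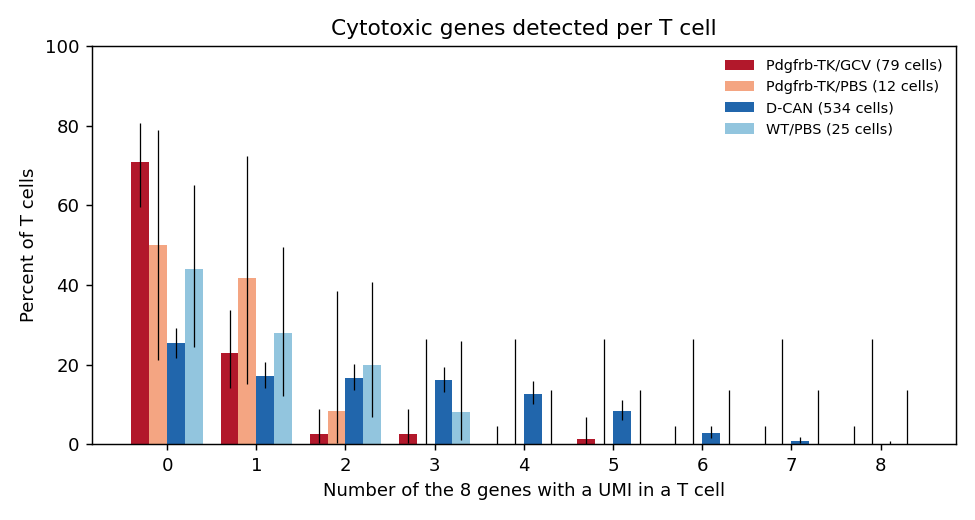
Percent of T cells by the number of the 8 genes with a UMI, for each library, with exact 95% binomial intervals as lines. D-CAN is the library with cells at 4, 6 and 7 genes, and 0 genes is the most frequent class in all 4.

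Gzma was the most concentrated, with its 345 UMIs in D-CAN T cells in 31 cells and 130 of them in 1 cell. Ifng was in 119 cells, with 93 of 488 UMIs in 1 cell, and the 10% of T cells with most UMIs of each gene held 82.4% of its UMIs and 81.3% of those of Gzmb. Nkg7 and Ctsw were the broadest, in 344 and 235 cells, with 39.2% and 44% of their UMIs in such cells. Fasl was thin everywhere, with at most 3 UMIs in any of its 107 cells.

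Cells with any of the members tended to hold Nkg7. It was detected in 31 of 31 D-CAN T cells with Gzma, 130 of 135 with Prf1, 114 of 119 with Ifng and 101 of 115 with Gzmb. Prf1 was detected in 52.1% of the cells with Ifng and in 17.6% of those without, and Gzmb in 42.2% of the cells with Prf1 and 14.5% of those without. Gzmk with Ifng was the loosest of the pairs that start from Gzmk, with Ifng in 24.6% of the cells with Gzmk and 22% of those without. These shares are not corrected for depth, and deeper cells have a UMI of more genes.

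Other genes of the cytotoxic program in D-CAN and WT/PBS T cells are given by list. They are to be read against the 29.9% of all genes tested that were 2-fold higher and the 8.11% that were lower. These counts share the limit of the filter given above, and genes with 0 UMIs in WT/PBS were called higher through it. Of 12 other granule and exocytosis genes with 20 UMIs, 7 were at least 2-fold higher and 1 lower, with a median log2 ratio of 1.25. Cst7, which encodes the cysteine protease inhibitor cystatin F, was at 141 CPM in D-CAN and had no UMI in WT/PBS. Its level was 4.5-fold that of 3 UMIs in WT/PBS. Lyst, a regulator of lysosome size, was 3.19-fold higher (1.46 to 8.74), and Ctsc, which activates granzymes, 2.58-fold (1.1 to 7.98). Unc13d (3.12) and Serpinb9 (2.26) had intervals that reached below 1, and Gzmc and Gzmf had 42 and 26 UMIs against 0, less than a count of 0 allows in WT/PBS. Stxbp2 was the lower gene, at 0.474-fold (0.222 to 1.21). Srgn, the proteoglycan of the granule core, was at 856 CPM in D-CAN against 918 CPM, 0.933-fold (0.754 to 1.17).

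Of 8 cytokine and death ligand genes tested, 4 were 2-fold higher and 1 lower, with a median of 1.29. The chemokines Ccl4 and Ccl3 were 13.1-fold (5.59 to 40.3) and 12.5-fold (3.46 to 104) higher, Tnfsf10, the death ligand TRAIL, 4.64-fold (1.27 to 38.5), and Xcl1, a chemokine for cross-presenting dendritic cells, 4.09-fold (2.51 to 7.17). Ccl5, another chemokine, was lower in D-CAN, at 0.684-fold (0.58 to 0.811). Cd40lg, a helper T cell ligand, was at 0.416-fold (0.132 to 2.11).

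Cytokine receptors gave 3 of 8 higher and 1 lower (median 0.31), with Il2ra at a ratio of 11 (1.97 to 438), Il2rb at 2.85 (1.66 to 5.36), Il7r at 2.34 (1.13 to 5.86) and Il12rb2, a subunit of the IL-12 receptor, at 0.457 (0.248 to 0.935). Of 7 NK receptor genes tested 3 were higher (median 0.83). Cd160 was at 63.1 CPM against 0, which was 2.02-fold the level of 3 UMIs in WT/PBS. Klrd1 was at 2.91-fold (1.57 to 6.08) and Klrk1 at 2.44-fold (0.825 to 11.9). Transcription factors gave 2 of 10 higher and a median of 0.03. They were Tbx21, which encodes T-bet, at 2.4-fold (0.927 to 8.87) and Prdm1, at 43.9 CPM against 0. The Prdm1 level was 1.4-fold that of 3 UMIs in WT/PBS. Its interval (36.6 to 52.2) overlapped the 0 to 38.5 CPM of WT/PBS. With 7 to 10 genes each, the shares of these lists are not set apart from the 29.9% of all genes that were higher. Runx3 was at 2.01-fold (1.17 to 3.78), just under the limit on the log2(CPM + 1) scale, and Tox, which marks chronically stimulated T cells, at 1.09-fold (0.887 to 1.34).

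In the Pdgfrb-TK model the same lists had 0 to 6 genes with 20 UMIs in T cells. Of 16 such genes, without the target cell list, 3 were 2-fold higher and 5 lower in Pdgfrb-TK/GCV, against 23.8% of all genes tested higher and 13.1% lower. Il18r1, a receptor chain for IL-18, was lowest at 0.0495-fold (0.0214 to 0.112), followed by Ccl5 at 0.304-fold (0.186 to 0.52), Il7r at 0.374-fold (0.201 to 0.759) and Stat4 at 0.449-fold (0.23 to 0.978). Rab27a was at 0.264-fold (0.0852 to 1.09). The higher ones, Lamp1, Ctsc and Tcf7, rested on 0 or 1 UMI in Pdgfrb-TK/PBS.

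On the target side, KPC tumor cells were measured for genes of IFN-γ or FasL reception and for granzyme inhibitors such as Serpinb9. Of 13 such genes, 4 were 2-fold higher in D-CAN than in WT/PBS and none lower, while 6.87% of 18390 genes were higher and 2.38% lower, and the median log2 ratio was 0.08 over the list and 0.08 over all genes tested. Irf1, a transcription factor induced by IFN-γ, was at 23.4 CPM after GCV and 18.5 CPM in its PBS library, 72.3 CPM after D-CAN and 20.6 CPM in WT/PBS. D-CAN thus stood highest, 3.52-fold above WT/PBS (3.35 to 3.69). Socs1 was 3.16-fold higher (2.87 to 3.5), and Serpinb9, an inhibitor of granzyme B, 2.76-fold (2.58 to 2.95). Against Pdgfrb-TK/PBS in place of WT/PBS the ratios were 3.91 for Irf1 (3.69 to 4.14), 8.32 for Socs1 (7 to 9.96) and 1.76 for Serpinb9 (1.65 to 1.88). Fadd, the adaptor of Fas, was the fourth gene, at 3.12-fold (2.64 to 3.71). Its levels were 4.91 CPM after GCV, 4.68 CPM in Pdgfrb-TK/PBS and 5.31 CPM after D-CAN, with WT/PBS alone low at 1.7 CPM, and D-CAN was 1.13-fold (0.989 to 1.3) the other PBS library.

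The receptors lay near 1, with Ifngr1 at 1.06-fold (1.03 to 1.09), Ifngr2 at 0.922-fold (0.892 to 0.954) and Fas at 1.01-fold (0.931 to 1.1) against WT/PBS. Against Pdgfrb-TK/PBS, D-CAN was at 0.996-fold (0.969 to 1.02) for Ifngr1 and 7.04-fold (5.8 to 8.61) for Fas, which was low in that library. In Pdgfrb-TK/GCV none of the 13 was 2-fold apart from Pdgfrb-TK/PBS, where 3.66% of 17801 genes were higher and 1.39% lower. Socs1 was the highest there at 1.78-fold (1.46 to 2.18), and Irf1 was at 1.26-fold (1.18 to 1.35). KPC tumor cells with at least 2 markers of another class made up 20.4% in D-CAN and 23.3% in WT/PBS. Their part in these values was not tested.

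Outside the T and NK gates, D-CAN was above WT/PBS for Prf1, at 7.36-fold (2.83 to 24.3), and Nkg7, at 6.53-fold (4.7 to 9.27). Ifng was at 4.34-fold (2.41 to 8.28) and Gzmb at 2.15-fold (1.32 to 3.55). Fasl was at 1.91-fold (1.02 to 3.66) and Ctsw at 1.48-fold (1.27 to 1.73), while Gzma and Gzmk had intervals that held 1. Where these UMIs came from was not tested. Gzmk and Ctsw are described further by cell class. In cells gated as endothelial (EC), Gzmk was at 50 CPM (17 UMIs) after GCV and 5.67 CPM (3 UMIs) in its PBS library, 17.1 CPM (17 UMIs) after D-CAN and 4.77 CPM (17 UMIs) in WT/PBS. In Pdgfrb-TK/GCV that was above its T cell level of 22.6 CPM, although the intervals of 29.1 to 80 and 9.08 to 46.5 overlap. Esm1, an endothelial gene on the opposite strand at chr13:113209659-113218098, lies within the span of the long Gzmk transcript, Gzmk-202. Its EC level ran in the same order, at 1085, 198, 268 and 89.7 CPM, and Esm1 was detected in 10 of 10, 3 of 3, 6 of 6 and 11 of 13 ECs with Gzmk, against 60.4%, 17.4%, 28.9% and 15.6% of all ECs. The RefSeq start used for the promoter above lies 3′ of Esm1 along the Gzmk strand, with the shorter transcripts Gzmk-201 and Gzmk-203. Of the T cell markers, Trac had 1 UMI in ECs of each library, Cd3e had none, and Cd3d and Cd3g had 6 and 1 in WT/PBS and none elsewhere. Of the ECs, 51.5% to 77.1% held 2 markers of another class.

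Ctsw was spread over KPC tumor cells in all 4 libraries, at 4.97 CPM (521 UMIs), 2.69 CPM (205 UMIs), 3.14 CPM (298 UMIs) and 2.49 CPM (283 UMIs). The level was 1.85-fold higher in Pdgfrb-TK/GCV than in Pdgfrb-TK/PBS (1.57 to 2.19) and 1.26-fold higher in D-CAN than in WT/PBS (1.07 to 1.49). Trac, a marker of the T cell gate, ran in the same order in KPC tumor cells, at 4.25, 2.35, 3.41 and 2.1 CPM. The other gate markers, Cd3d, Cd3e and Cd3g, were lower there, at 0.0528 to 0.538 CPM. The source of these UMIs was not tested. The annotated end of Ctsw overlaps that of Fibp, on the opposite strand, by 9 bases, and Fibp was at 54.4, 71.7, 64.1 and 63 CPM. Fibp did not follow the order of Ctsw, being lowest where Ctsw was highest. Fibp was detected in 270 of the 414 KPC cells with Ctsw in Pdgfrb-TK/GCV and in 37.6% of all KPC cells there. The shares for Ctsw with Fibp, and for Gzmk with Esm1 above, are not corrected for depth, and deeper cells have a UMI of more genes. Whether reads of such pairs were split by strand is not given in the sources used here, and the part of the overlapping genes in the Gzmk and Ctsw values was not tested.

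**Figure D5:**
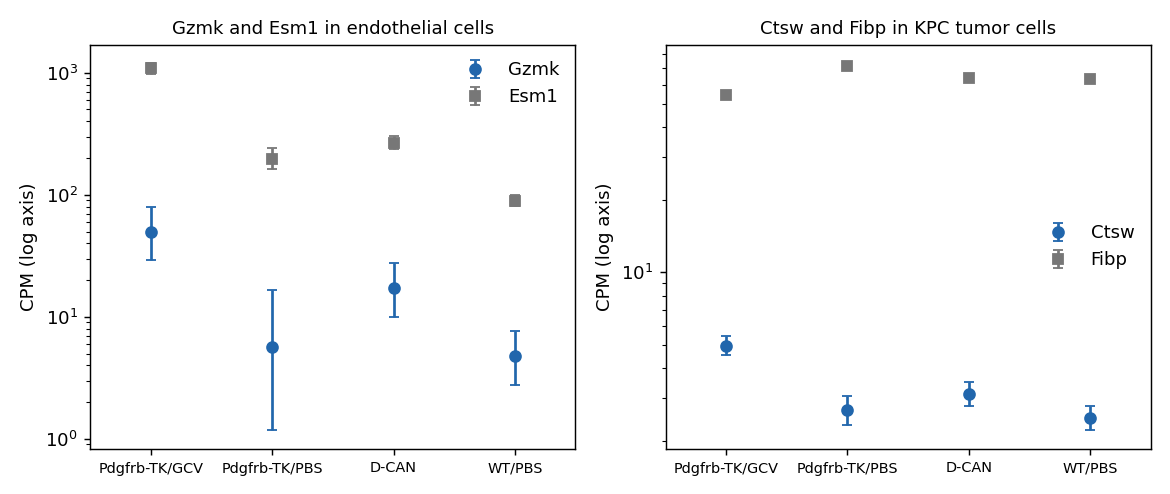
Levels (CPM, log axes) of Gzmk and its overlapping gene Esm1 in endothelial cells, left, and of Ctsw and its overlapping gene Fibp in KPC tumor cells, right, by library, with exact 95% Poisson intervals. Gzmk and Esm1 are both highest in Pdgfrb-TK/GCV and lowest in WT/PBS, while Ctsw is highest and Fibp lowest in Pdgfrb-TK/GCV.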

How the data were processed

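Tumor cells of 4 libraries, 1 per condition, were captured with 10x Chromium 3′ chemistry. The values the authors deposited are counts of UMIs per gene and cell, without normalization. The methods name Cell Ranger on mm10, the submitters' processing notes add STAR 2.6, and the file headers name Cell Ranger 7.0.0. The protocol text of the labels describes another tissue, so libraries were matched by title, and the tissue was checked by markers. D-CAN and WT/PBS carry 5 features beyond the shared genes, and those were left out.

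Cells with at least 200 genes were kept, doublets included, since the methods name no removal. A gate over 13 classes took the class with the largest share of its markers, at least 2 with a UMI, and left ties unassigned. UMIs were summed per class and library and scaled to CPM. Intervals are exact at 95% (Poisson for CPM, Clopper-Pearson for shares, conditional binomial for ratios) and cover counting error only. No ratio was formed where both groups had 3 UMIs or fewer, and against 0 UMIs a ratio was taken to 3 UMIs and given as a lower bound. That bound leaves out the counting error of the group with UMIs, and 3 UMIs lies under the exact 95% upper bound of 0 UMIs. The 2-fold calls used log2(CPM + 1) and genes with at least 20 UMIs in the pair of libraries. They are not tests. Shares of detected cells were also taken after thinning to 1000 UMIs. Each thinned value comes from a single random draw, and its interval leaves out the noise of that draw. Functions were tested on simulated data.

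Of the list of target cell genes, 1 gene is not reported here and was left out of its counts. The members and gene lists were chosen with earlier results of these data known. Named genes are the members, genes of the lists past 2-fold or with the highest levels, and for each member the 3 genes most like it. Runx3, Ifngr1, Ifngr2, Fas, Esm1 and Fibp were added after their values were seen. Analyses used Python 3.11.15, numpy 2.4.6, scipy 1.17.1 and pandas 2.3.3. Alternatives changed the gate, the cell filters, the scaling, the depth, the top cell and the control.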

Additional observations from a re-analysis of the deposited data

Results flagged for a closer look

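The summed members and Nkg7 lay in opposite directions in T cells of the 2 models. The summed level was 0.273-fold in Pdgfrb-TK/GCV against its PBS library and 5.95-fold in D-CAN against its own, and Nkg7 was 0.178-fold and 8.63-fold, each with an interval that leaves out 1 under the main settings. For Nkg7 after GCV the interval no longer left out 1 without the top cell (0.326, 0.0973 to 1.71), after thinning (0.286, 0.0847 to 1.23) or against the other PBS library (0.696, 0.341 to 1.51). The difference between the models was not tested, since each condition has 1 library. The GCV side rests on 62 and 15 UMIs, 10 of the 15 from Nkg7 in 3 cells, 7 of them in 1 cell.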

How the results depend on the processing

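No paired analysis was possible because each condition holds 1 library, and no replicate could be left out. For NK cells no ratio could be formed under the main settings. In T cells, the D-CAN ratio of the sum (5.95) stayed between 5.66 and 7.49 under both other gates, the stricter filters, the scaling and without the top cell, and was 3.96 after thinning, 2.54 against the other PBS library, 4.16 without Nkg7 and 3.66 without Cd8 cells. The last 2 alternatives were chosen after seeing the data. The GCV ratio (0.273) was 0.583 (0.291 to 1.25) without cells with markers of a second class, 0.473 (0.272 to 0.871) with 1 marker, 0.639 (0.407 to 1.02) against the other PBS library and 0.364 (0.142 to 1.1) after thinning. Over all cells, the D-CAN ratio (15.2) was 19.7 after thinning, 13.2 against the other PBS library and 34.1 without Ctsw, an alternative added after seeing the data, and the GCV ratio (1.61) was 1.85 against the other PBS library. The share of member UMIs in T and NK cells, in library order from Pdgfrb-TK/GCV to WT/PBS, was 26.1%, 13.3%, 89% and 18% after thinning, which gives small cells more weight. With 3 markers it was 6.27%, 80.8% and 2.99% in Pdgfrb-TK/GCV, D-CAN and WT/PBS, with 1 marker 8.31% and 88.3% in Pdgfrb-TK/PBS and D-CAN, without cells of a second class 5.98% and 89.8% in Pdgfrb-TK/GCV and D-CAN, and without the top cell 6.29% and 2.36% in Pdgfrb-TK/GCV and Pdgfrb-TK/PBS. Of the ratios of single members, 176 under alternatives stayed within the main 95% interval or remained a lower bound, 33 did not, and no member ratio with an interval that left out 1 turned its direction. Among the latter, Ifng and Ctsw in D-CAN T cells had lower bounds of 1.1 and 1.34 after thinning, and Gzma and Prf1 had bounds of 0.807 and 0.755 against the other PBS library, which give no direction. The cause of these shifts was not tested. In KPC tumor cells the other PBS library, chosen as control after seeing the data, turned the direction of the D-CAN ratio for Csf2 (2.23), Jak1 (1.48), Bid (1.34) and Ifngr1 (0.996). With a pseudocount of 10 CPM, 24% of genes in T cells and 2.03% in KPC tumor cells were 2-fold apart between D-CAN and WT/PBS, against 38.1% and 9.26% with 1 CPM. The 12 T cells of Pdgfrb-TK/PBS set the depth of the GCV comparison.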

Other observations

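The members differed in both directions between cycling and other T cells. In D-CAN, the 169 T cells with a UMI of Mki67 or Top2a held Gzma at 182 CPM (159 to 206) and Gzmk at 45.1 CPM (34.3 to 58.1), against 66.6 CPM (54.6 to 80.5) and 19.3 CPM (13.1 to 27.4) in the 365 others. Ifng and Fasl were lower in the cycling cells, at 119 CPM (101 to 139) and 31.3 CPM (22.5 to 42.5) against 207 CPM (185 to 230) and 58.5 CPM (47.3 to 71.6). The other 4 genes had overlapping CPM intervals. As ratios of cycling to other cells, Gzmb was at 1.25 (1.03 to 1.51) and Nkg7 at 1.09 (1.02 to 1.17). The intervals of Prf1, at 1.13 (0.904 to 1.42), and Ctsw, at 1.1 (0.911 to 1.33), held 1. The cell with 130 Gzma UMIs was among the cycling cells, and without it the level there was 83 CPM (68.1 to 100), a ratio of 1.25 (0.945 to 1.64) to the others, so that the difference in Gzma went with 1 cell. Without the cell with most Ifng UMIs, 93 in a cell that was not cycling, the Ifng ratio was 0.795 (0.645 to 0.976) in place of 0.577 (0.474 to 0.7). Both were computed after seeing the data.

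Over the 30 class and library points with at least 30 cells, the genes most like each member in log2(CPM + 1) were mostly T cell genes. The points share libraries and 2 of them are T cells, so the correlations describe the contrast of T cells with other classes. Cd160 led for Gzma (Pearson's r = 0.982) and Gzmb (0.984), before Cd8b1 and Cxcr6 for Gzma and Cd3e and Sh2d1a for Gzmb. Cst7 led for Nkg7 (0.942), before Sytl3 and Cd8b1, Xcl1 for Ifng (0.961), before Gm156 and Cxcr6, Cd3d for Fasl (0.935), before Cd160 and Trbc2, and Gm44174 for Prf1 (0.991), before Gm19585 and Il2rb. Klrc1 led for Ctsw (0.865), before Tox and Themis, and B630019A10Rik for Gzmk (0.855), before Dach2 and Tnfsf10. Cd3d and Cd3e are markers of the gate.

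In Pdgfrb-TK/PBS, all 17 Gzmb UMIs lay in 2 cells gated as KPC tumor cells, 16 of them in 1 cell. Without the cell with the most Gzmb UMIs in each library, the ratio of Gzmb over all cells, GCV over PBS, was 10.5 (1.63 to 441) in place of 0.967 (0.502 to 1.91). The PBS side of the ratio of 10.5 rested on the other of these 2 cells alone, so that it gives no direction. In Pdgfrb-TK/PBS, 1 cell gated as a KPC tumor cell had UMIs of 5 members. Whether it was a lymphocyte or a doublet was not tested. In KPC tumor cells, Tnfsf10 was at 1.34 CPM after D-CAN and 0.167 CPM in WT/PBS, a ratio of 8.01 (4.93 to 13.7), or 6.02 (3.61 to 10.7) against Pdgfrb-TK/PBS. The chemokines Ccl3, Ccl4 and Ccl5 were at 0.409-fold (0.365 to 0.458), 0.281-fold (0.254 to 0.31) and 0.327-fold (0.281 to 0.379) of WT/PBS. Against Pdgfrb-TK/PBS they were at 0.439-fold (0.388 to 0.496), 0.759-fold (0.669 to 0.86) and 0.795-fold (0.659 to 0.959). Ccl4 and Ccl5 were highest in WT/PBS, at 18.3 and 7.37 CPM.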
